A study of Bos taurus with 16 samples.

Results

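The genes described here are 34 genes of the cell division cycle, read across the 4 treatment groups of a culture experiment on bovine theca cells. They comprise D-type cyclins and inhibitors of cyclin-dependent kinases (CDKs), the MCM helicase and its loader, enzymes of DNA replication and nucleotide supply, and cyclins, kinases and checkpoint genes of mitosis. Members were found by gene symbol in the platform annotation of the array, and where a gene has several probe sets, the one with the highest mean signal on the 16 arrays stands for it. Of the 34 listed genes, 30 were measured, among 9155 named genes on the array. MKI67, TOP2A, MCM2 and KIF11 had no probe set under that symbol and were not analysed here. More than 1 probe set was found for 9 members.

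Theca interna cells, the layer of the ovarian follicle wall that makes androgens, were pooled from small antral follicles of adult cattle and cultured without serum for 6 days. Control wells received neither agent. From day 3 and for 4 days in all, the others received 160 pg/ml of luteinising hormone (LH), 10 ng/ml of BMP6, a bone morphogenetic protein, or both of them (LH+BMP6). Each group had 4 Affymetrix bovine arrays, 1 from each of 4 experiments on separate batches of ovaries, so an array stands for a pool of follicles and not for 1 animal. Values are log2 signals, on which a difference of 1 is 2-fold. A gene was called when its adjusted p was under 0.05 in limma, with adjustment over all 24016 probe sets tested.

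A cell that divides passes through a gap phase (G1), DNA synthesis (S), a further gap (G2) and mitosis (M). D-type cyclins with their kinases start the passage out of G1, and the inhibitors p21 (CDKN1A) and p57 (CDKN1C) restrain it. The MCM helicase is loaded on DNA in G1 and unwinds it in S phase, while ribonucleotide reductase, thymidylate synthase and thymidine kinase supply DNA precursors. Transcripts of most S-phase and mitotic genes are made mainly in cycling cells, so in bulk RNA they are commonly read as a sign of how many cells are in cycle. In the follicle, theca cells multiply as the follicle grows, and BMP6 is one of the growth factors of the ovary that act on them. In bulk RNA, fewer cells of a kind and less RNA per cell cannot be told apart.

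With BMP6 3 of the 30 genes were called against control, and none of the 14 of G2 and mitosis, where 24.8% of all named genes were called. TK1, cytosolic thymidine kinase, was 1.69-fold higher with BMP6 than in control and 2.12-fold higher with LH+BMP6 than with LH. MCM6, a subunit of the helicase, was 1.29-fold and 1.38-fold higher in the same comparisons. TYMS, thymidylate synthase, which makes the same nucleotide by another route, was 1.31-fold lower with BMP6 than in control. In LH+BMP6 against LH it was 1.25-fold lower and not called. The calls of MCM6 and TYMS against control were each lost in 12 of the alternative fits described below, and that of TK1 in 2. LH gave no call among the 30 genes, with or without BMP6. Of all 9155 named genes, LH called 0 with BMP6 and 2 without it. In the groups without BMP6, most S-phase and mitotic members were low together on the same arrays, control replicate 1 and LH replicate 1.

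Signals of cell types and of array quality bear on these values. Theca markers were present in all groups: the mean signal of the 7 markers was 9.78 to 10.30 on control arrays, 10.27 to 11.42 with LH, 7.25 to 7.58 with BMP6 alone and 7.19 to 7.97 with LH+BMP6. With BMP6 6 of these 7 markers fell against control, among them the theca peptide hormone INSL3 (14.08 ± 0.19 against 8.38 ± 1.45, mean ± SD, n = 4). Of the granulosa markers, the FSH receptor gene FSHR had group means of 3.42 to 3.57, below the lower quartile of every array (4.31 to 4.43), and FOXL2 had 4.72 to 4.82. Of the 8 measured granulosa markers, CDH2 (N-cadherin, found in other cell types as well) rose in both tests of BMP6, by 1.67 ± 0.27 against control and 1.77 ± 0.27 against LH, and INHBA rose by 0.45 ± 0.15 against LH. Of these 8, 3 lay below 0 against control (lowest -0.86) and 6 against LH (lowest -0.49), with 0 called lower in either test. The medians were 0.08 and -0.08. Leukocyte transcripts were there, with a group mean of 7.93 to 8.90 for PTPRC (CD45), and of 14 leukocyte markers 9 rose in LH+BMP6 against LH (median difference 0.73) and 1 in BMP6 against control (median 0.43, 13 of 14 above 0). In each of these tests 9 of the 14 had an unadjusted p under 0.05, and by limma the interaction called 0 of them, with 0 at an unadjusted p under 0.05. Of all named genes, 11.7% and 9.31% were called higher. Of 13 fibroblast and pericyte markers 4 rose in each of these comparisons, DCN and PDGFRA among them, and 2 fell in LH+BMP6 against LH. Of 11 endothelial markers 1 fell and 0 rose in each, where 15.5% of all named genes were called lower. Below 0 were 8 of the 11 against control (median -0.12) and 9 against LH (median -0.27). As a measure of RNA integrity, the actin control's 3 prime signal exceeded its 5 prime signal by 2.20 ± 0.35 (mean ± SD) in control, by 2.10 ± 0.16 in the LH group, by 1.86 ± 0.28 in the BMP6 group and by 1.72 ± 0.28 in the LH+BMP6 group. Hybridisation controls, which are added to the sample at a set amount, had a mean of 9.23 to 9.32 on 3 arrays (control replicates 1 and 3 and LH replicate 1) and of 10.46 to 10.72 on the other 13. The part that these differences have in the results below was not tested, except where values without those arrays are given.

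On control replicate 1, 28 of the 30 genes lay below the mean of their own group, by a median of 0.36, and 25 had their lowest value of the 4 control arrays there. On LH replicate 1, 26 of 30 lay below their group mean, by a median of 0.50, and 25 had their lowest value of the 4 LH arrays there. On control replicates 2 and 3, in turn, 28 of 30 genes lay above their group mean on each. Leaving aside the D-type cyclins and CDK inhibitors, all 26 remaining members were below the mean on control replicate 1, and 25 of 26 on LH replicate 1. Hybridisation controls were low on control replicate 1 (9.23), LH replicate 1 (9.27) and control replicate 3 (9.32), and the last of these was high for the members. The part of that signal in the low values was not tested.

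**Figure D1:**
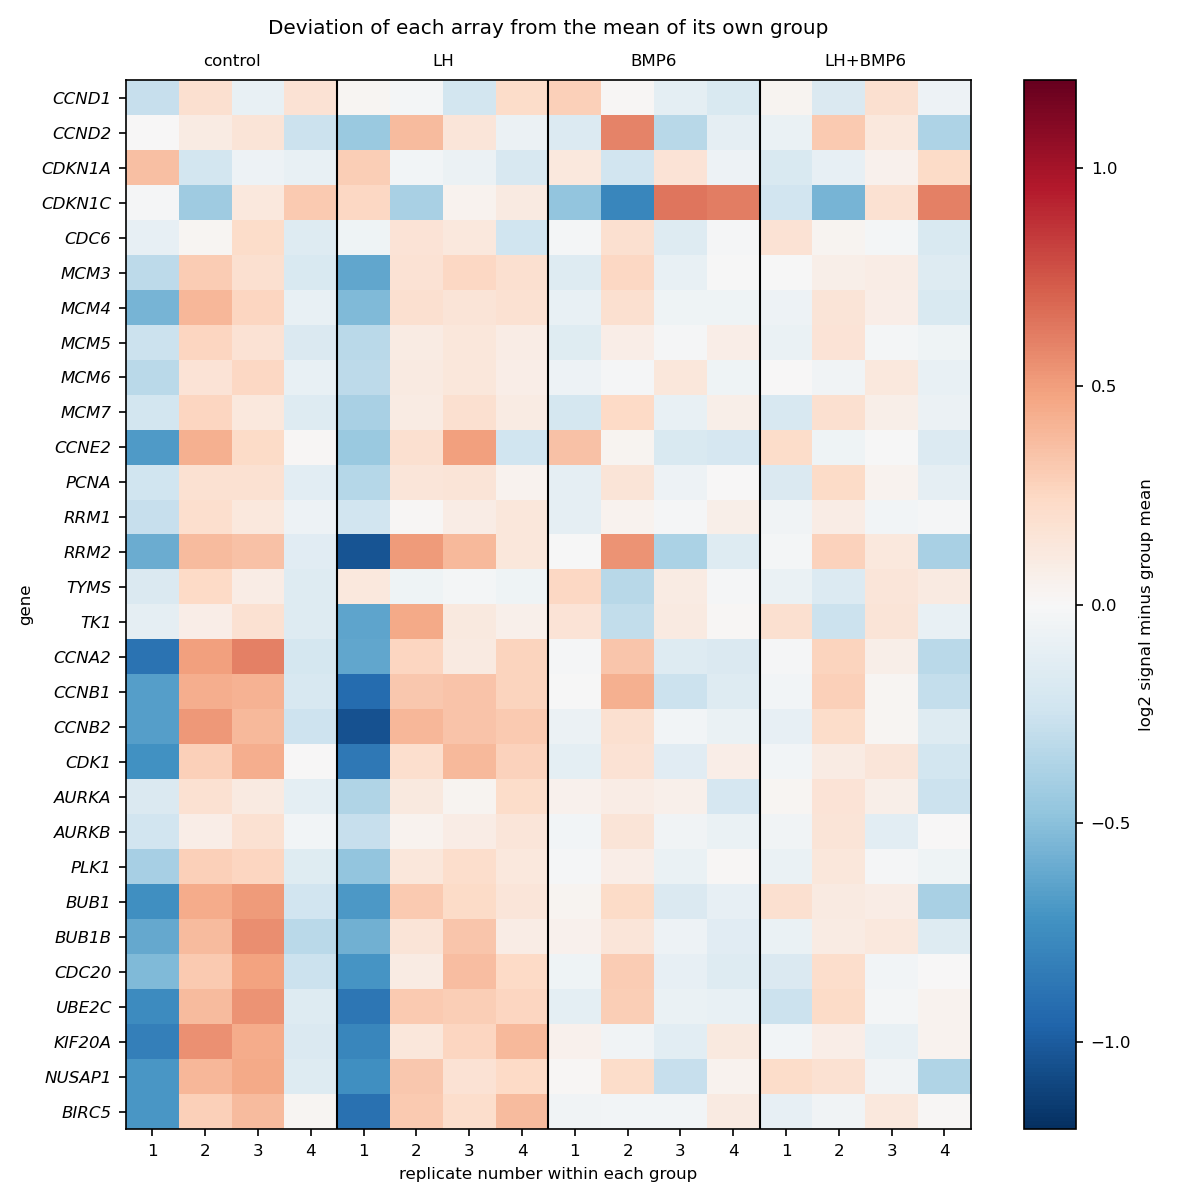
Log2 signal of each of the 30 measured cell cycle genes (rows, ordered by role) on each of the 16 arrays (columns, replicates 1 to 4 of each group), minus the mean of that gene in the same group; blue is lower and red higher. Control replicate 1 is blue for 28 of 30 genes and LH replicate 1 for 26 of 30, while the rows of CDKN1A and CDKN1C differ from the mitotic rows.

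The first role comprises the genes that set the pace of G1. CCND1 and CCND2 encode cyclins D1 and D2, which activate CDK4 and CDK6, and CCND2 is the D-type cyclin most tied to FSH-driven growth of granulosa cells. The signals of CCND2 were 7.66, 7.75, 7.81 and 7.40 on control replicates 1 to 4, 7.22, 8.05, 7.81 and 7.60 with LH, 7.76, 8.52, 7.59 and 7.82 with BMP6 alone, and 8.06, 8.46, 8.27 and 7.77 with LH+BMP6. The groups overlap, and the array with the highest signal, BMP6 replicate 2, lies 0.70 above the next BMP6 array. CCND2 was 0.27 ± 0.20 (SE) higher with BMP6 than in control (limma adjusted p = 0.414) and 0.47 ± 0.20 higher with LH+BMP6 than with LH (adjusted p = 0.107), higher in 4 of 4 replicate numbers. With the replicate number as a block in the model, which compares arrays of the same number, the second difference was called (adjusted p = 0.0206), but not with that block as a random effect, which uses an estimated correlation between arrays of a number (adjusted p = 0.0656). CCND1 had group means of 5.08 to 5.33, and its difference was 0.24 ± 0.13 in each of the comparisons (adjusted p = 0.24 and 0.236), not called.

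CDKN1A encodes p21, the inhibitor that p53 and growth-arrest signals raise. Its signals were 10.60, 10.02, 10.18 and 10.15 in control, 10.45, 10.13, 10.08 and 9.96 with LH, 10.65, 10.29, 10.68 and 10.46 with BMP6 alone, and 10.31, 10.39, 10.54 and 10.72 with LH+BMP6. The highest control array and the highest LH array were the replicate 1 arrays on which the mitotic genes were lowest. Over all arrays the difference was 0.28 ± 0.13 for BMP6 against control (adjusted p = 0.163), and in LH+BMP6 against LH it came to 0.33 ± 0.13 (adjusted p = 0.0852), neither called. Without control replicate 1 the first was 0.40 and was called (adjusted p = 0.0408), and without LH replicate 1 the second was 0.43 and was called (adjusted p = 0.0345).

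CDKN1C encodes p57, an inhibitor expressed from one parental copy and associated with cells that leave the cycle. It spread widely among the arrays with BMP6: 7.46, 7.15, 8.57 and 8.54 with BMP6 and 7.89, 7.56, 8.30 and 8.73 with LH+BMP6, against 7.14, 6.73, 7.28 and 7.47 in control and 7.71, 7.07, 7.50 and 7.57 with LH. On replicate 2 it was lowest in all 4 groups, and groups with and without BMP6 overlap through the replicate 1 and 2 arrays. The difference was 0.77 ± 0.30 for BMP6 against control (adjusted p = 0.0838), and in LH+BMP6 against LH it came to 0.65 ± 0.30 (adjusted p = 0.14), higher in 4 of 4 replicate numbers in each. With the replicate block both were called (adjusted p = 0.00412 and 0.0109), and with the block as a random effect the first was (adjusted p = 0.0437) and the second was not (adjusted p = 0.0833). The gene's other 2 probe sets, with means of 4.79 and 4.75, differed by 0.06 and 0.16 for BMP6 against control (adjusted p = 0.758 and 0.25), so the difference rests on 1 of 3 probe sets.

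MCM3 to MCM7 encode subunits of the 6-part replicative helicase, and CDC6 encodes the factor that loads it at origins. MCM6 had signals of 8.54, 9.02, 9.11 and 8.77 in control, 8.40, 8.82, 8.85 and 8.79 with LH, 9.16, 9.20, 9.35 and 9.17 with BMP6 alone, and 9.18, 9.13, 9.31 and 9.09 with LH+BMP6. All 4 BMP6 arrays were above all 4 control arrays, and all 4 LH+BMP6 arrays above all 4 LH arrays, while control replicate 3 lay above LH+BMP6 replicate 4. The difference was 0.37 ± 0.12 for BMP6 against control (adjusted p = 0.04), and in LH+BMP6 against LH it came to 0.46 ± 0.12 (adjusted p = 0.00996). A second probe set gave 0.39 ± 0.13 (adjusted p = 0.0446) and 0.37 ± 0.13 (adjusted p = 0.0509). The call against control is a narrow one: without control replicate 1 the difference was 0.26 (adjusted p = 0.149), and it was lost too without control replicate 4 or any single BMP6 array, whereas the call against LH held without each single array (adjusted p 0.00416 to 0.0399).

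The other helicase genes stood close to each other in pattern but were not called. MCM4 was 0.14 ± 0.18 higher with BMP6 than in control (adjusted p = 0.688) and 0.39 ± 0.18 higher with LH+BMP6 than with LH (adjusted p = 0.148), where it was called with the replicate block (adjusted p = 0.0331) but not with the block as a random effect (adjusted p = 0.0968). Its LH arrays read 7.65, 8.36, 8.33 and 8.35 and its LH+BMP6 arrays 8.51, 8.72, 8.65 and 8.39, so the groups do not overlap, and without LH replicate 1 the difference was 0.22. MCM3 differed by 0.19 ± 0.17 and 0.31 ± 0.17 (adjusted p = 0.535 and 0.241), and a second, dimmer probe set of MCM3 by 0.07 and -0.13, of the opposite sign in LH+BMP6 against LH. MCM5 differed by 0.00 ± 0.12 and 0.10 ± 0.12, MCM7 by -0.07 ± 0.14 and 0.13 ± 0.14, and CDC6 by 0.04 ± 0.11 and 0.05 ± 0.11. Group means were 8.48 to 8.66 for MCM7 and 5.16 to 5.22 for CDC6.

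TK1, which phosphorylates thymidine recovered from outside the cell or from broken-down DNA, had the largest called difference of the 30 genes. Its signals were 7.82, 8.01, 8.12 and 7.77 in control and 6.94, 8.02, 7.68 and 7.63 with LH, against 8.85, 8.40, 8.80 and 8.71 with BMP6 and 8.85, 8.39, 8.81 and 8.57 with LH+BMP6. All 8 arrays with BMP6 (8.39 and above) were above all 8 without it (8.12 and below), which held for 1 of the 30 members and for 1527 of 9155 named genes (16.7%). The difference was 0.76 ± 0.18 for BMP6 against control (adjusted p = 0.00568), and in LH+BMP6 against LH it came to 1.09 ± 0.18 (adjusted p = 0.000335), higher in 4 of 4 replicate numbers in each. LH replicate 1 was the lowest array by 0.69, and without it the second difference was 0.88 (adjusted p = 0.00191), still called. The call against control held without each single array and was lost when the 4 arrays of replicate 4 were left out together (0.70, adjusted p = 0.0719).

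TYMS methylates deoxyuridylate to thymidylate, the de novo counterpart of the TK1 reaction, and its values went the other way. Signals were 8.04, 8.45, 8.30 and 8.06 in control, 8.21, 8.03, 8.06 and 8.03 with LH, 8.08, 7.49, 7.93 and 7.81 with BMP6 alone, and 7.68, 7.59, 7.91 and 7.87 with LH+BMP6. BMP6 replicate 1 overlaps the control arrays, and the LH+BMP6 arrays were all below the LH arrays. The difference was -0.39 ± 0.12 for BMP6 against control (adjusted p = 0.0322), and in LH+BMP6 against LH it came to -0.32 ± 0.12 (adjusted p = 0.0713, not called). Without BMP6 replicate 2 the first was -0.28 (adjusted p = 0.111), and the call was lost as well without control replicate 2, control replicate 3 or BMP6 replicate 4. A second, dimmer probe set differed by -0.15 ± 0.09 (adjusted p = 0.259). Its mean of 3.64 lies below the lower quartile of every array, so it says little on the change.

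**Figure D2:**
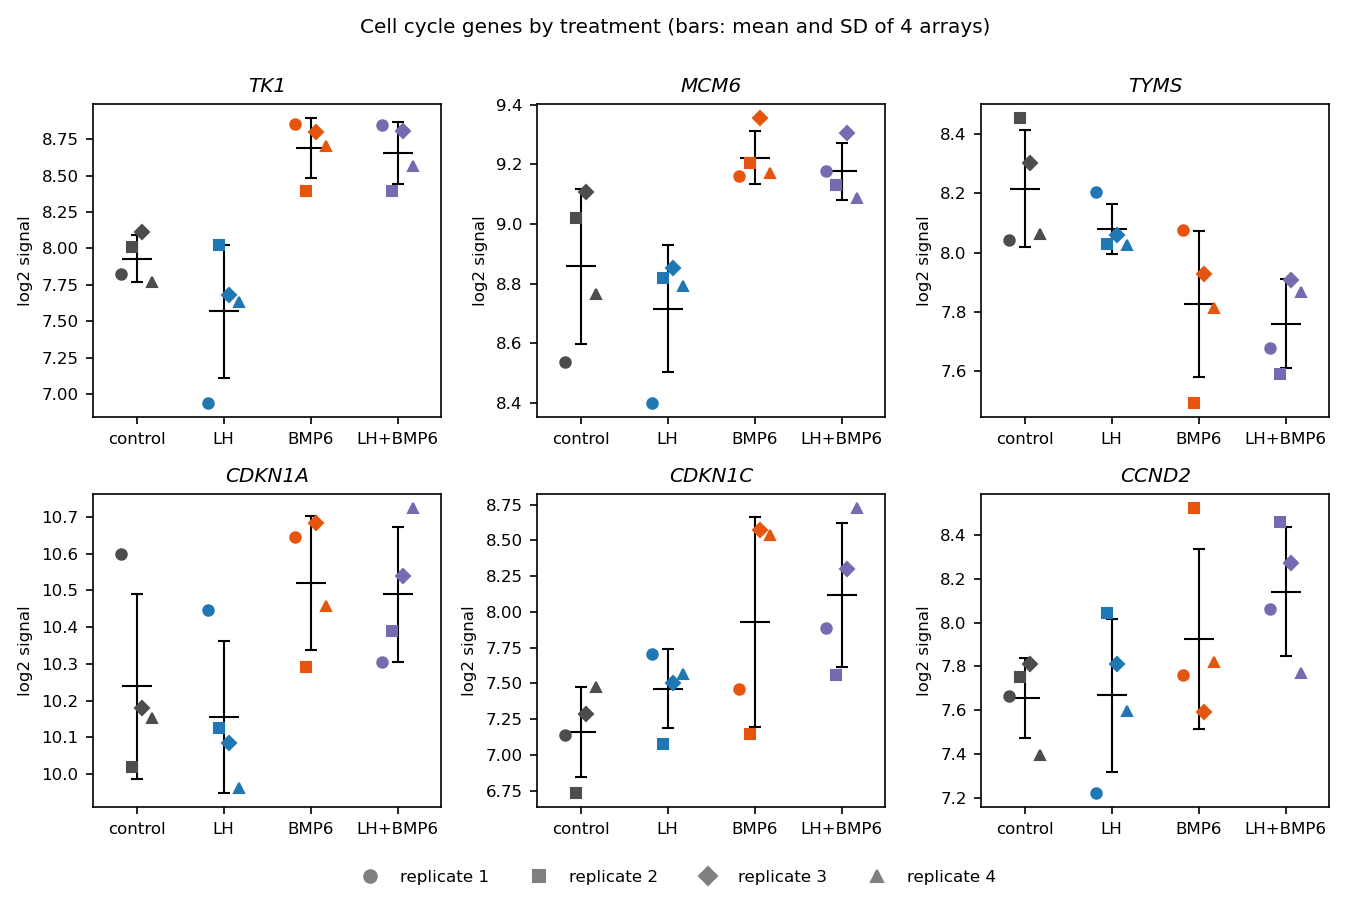
Log2 signal of TK1, MCM6, TYMS, CDKN1A, CDKN1C and CCND2 in each of the 4 groups; a symbol is 1 array, its shape the replicate number, and the bars are the mean and SD of 4 arrays. The axes do not start at 0. The BMP6 and LH+BMP6 arrays of TK1 (8.39 to 8.85) lie above all control and LH arrays (6.94 to 8.12), while CDKN1C spans 7.15 to 8.57 in the BMP6 group.

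Among the remaining genes of S phase, RRM1 and RRM2 encode the large and small subunit of ribonucleotide reductase. RRM2 read 8.90, 9.87, 9.84 and 9.36 in control, 8.19, 9.73, 9.61 and 9.36 with LH, 9.85, 10.39, 9.47 and 9.70 with BMP6 alone, and 9.78, 10.08, 9.93 and 9.41 with LH+BMP6. Its differences, 0.36 ± 0.29 (adjusted p = 0.476) and 0.58 ± 0.29 (adjusted p = 0.19), were within the spread between arrays, and the second was 0.23 without LH replicate 1. RRM1 differed by 0.12 ± 0.10 and 0.10 ± 0.10. PCNA, the sliding clamp of DNA polymerase, had group means of 10.45 to 10.51 and differed by -0.03 ± 0.12 and 0.01 ± 0.12. CCNE2, cyclin E2, which acts at the start of S phase, differed by -0.04 ± 0.22 and 0.04 ± 0.22.

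In the tests of BMP6 limma called 0 of the 14 genes of G2 and mitosis, and 0 had an unadjusted p under 0.05, where 24.8% of named genes were called against control and 27.2% against LH. The median SE of a difference was 0.25 for these 14 genes, against 0.10 over all probe sets, so a change had to be larger to be called. CDK1, the kinase that drives entry into mitosis, read 7.03, 8.05, 8.20 and 7.77 in control, 6.54, 7.59, 7.79 and 7.67 with LH, 7.95, 8.24, 7.93 and 8.14 with BMP6 alone, and 7.85, 7.98, 8.03 and 7.67 with LH+BMP6. The low arrays were control replicate 1 and LH replicate 1, and the groups overlap. CDK1 differed by 0.31 ± 0.25 for BMP6 against control (adjusted p = 0.464), and in LH+BMP6 against LH it came to 0.48 ± 0.25 (adjusted p = 0.193), and without control replicate 1 and LH replicate 1 by 0.06 and 0.20. CCNB1, cyclin B1, its partner, read 6.57, 7.67, 7.65 and 7.05 in control, 5.85, 7.10, 7.12 and 7.04 with LH, 7.35, 7.79, 7.10 and 7.21 with BMP6 alone, and 7.26, 7.58, 7.31 and 7.01 with LH+BMP6. Its differences of 0.13 ± 0.27 and 0.51 ± 0.27 (adjusted p = 0.82 and 0.217) became -0.09 and 0.20 without those arrays. CCNB2, cyclin B2, differed by -0.04 ± 0.28 and 0.30 ± 0.28, and CCNA2, cyclin A2, which serves both S phase and G2, by 0.12 ± 0.27 and 0.33 ± 0.27.

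Small differences were measured for the mitotic kinases. AURKA, which matures the centrosomes, had differences of 0.13 ± 0.13 for BMP6 against control and 0.05 ± 0.13 for LH+BMP6 against LH. AURKB, the kinase of the chromosomal passenger complex, had 0.01 ± 0.11 and 0.15 ± 0.11. A second probe set of AURKB gave 0.36 ± 0.17 and 0.38 ± 0.17 (adjusted p = 0.158 and 0.121), larger and also not called. PLK1, which acts from centrosome maturation to cytokinesis, had 0.07 ± 0.15 and 0.26 ± 0.15.

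The last role is the spindle checkpoint and mitotic exit. BUB1 and BUB1B are checkpoint kinases of the kinetochore, and CDC20 is the activator of the anaphase-promoting complex that the checkpoint holds back. BUB1 differed by 0.15 ± 0.25 and 0.18 ± 0.25 in BMP6 against control and LH+BMP6 against LH, BUB1B by -0.16 ± 0.22 and 0.15 ± 0.22, and CDC20 by -0.02 ± 0.22 and 0.30 ± 0.22. A second, dimmer probe set of BUB1 differed by -0.21 ± 0.15 and 0.09 ± 0.15, of the opposite sign in BMP6 against control and not called. UBE2C, the ubiquitin-conjugating enzyme of that complex, read 6.91, 8.04, 8.20 and 7.51 in control and 7.60, 8.02, 7.64 and 7.63 with BMP6. Its group means, 7.66 and 7.73, are close, and the control arrays span 1.29 against 0.42 for BMP6. KIF20A, a kinesin of cytokinesis, differed by -0.16 ± 0.26 and 0.11 ± 0.26. It was called in BMP6 against control only when control replicate 1 and LH replicate 1 were both left out (-0.43, adjusted p = 0.0487). NUSAP1, which bundles spindle microtubules, differed by 0.10 ± 0.25 and 0.22 ± 0.25, and BIRC5 (survivin), of the passenger complex, by 0.26 ± 0.24 and 0.43 ± 0.24.

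**Figure D3:**
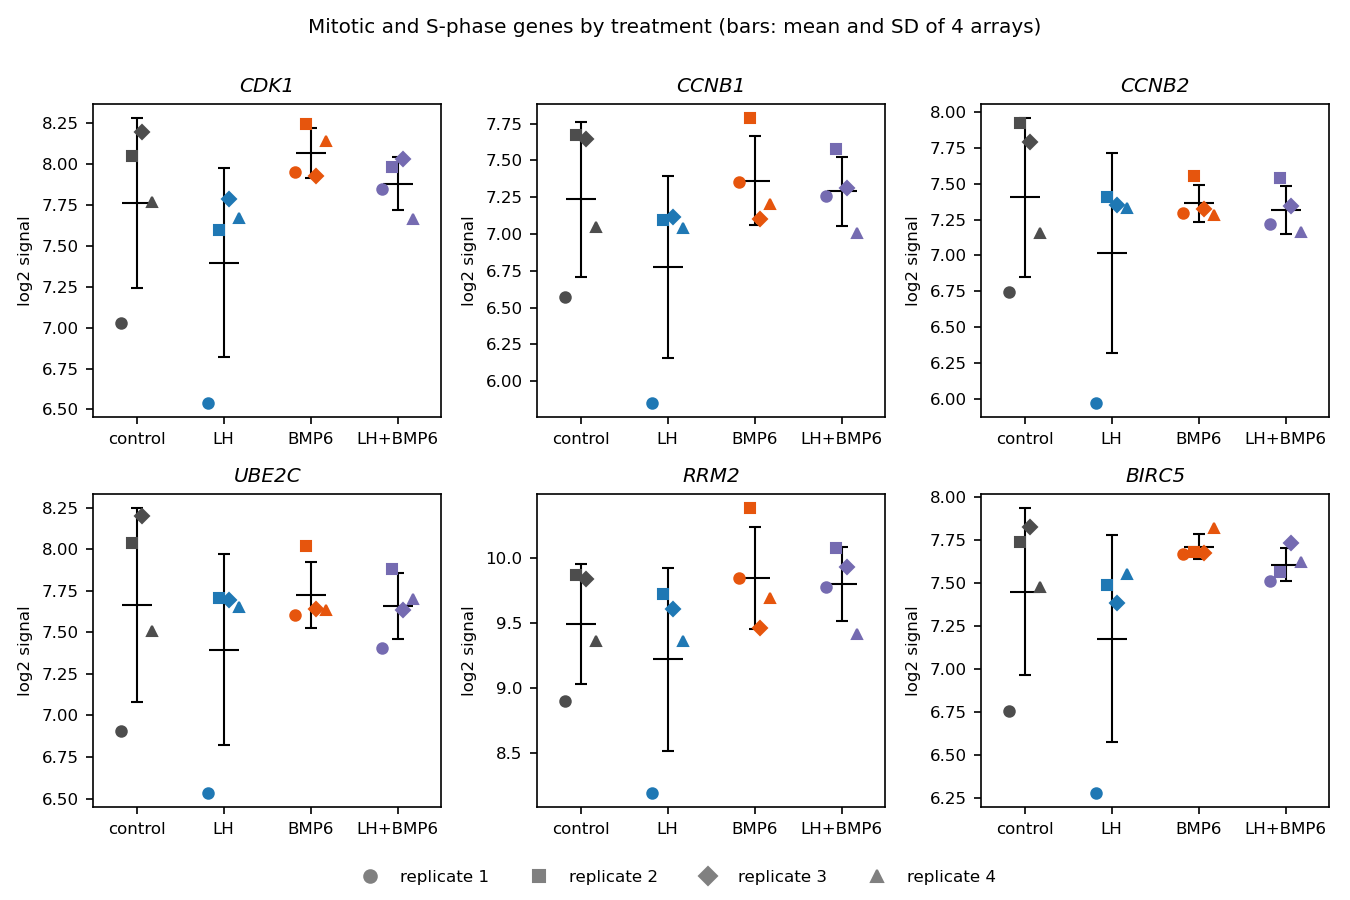
Log2 signal of CDK1, CCNB1, CCNB2, UBE2C, RRM2 and BIRC5 in each of the 4 groups; a symbol is 1 array, its shape the replicate number, and the bars are the mean and SD of 4 arrays. The axes do not start at 0. The replicate 1 arrays (circles) of control and LH lie below the other arrays of their group, at 7.03 and 6.54 for CDK1, while the BMP6 replicate 1 array of CDK1 is at 7.95.

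Counted together for BMP6 against control, 3 of 30 members were called, 2 higher and 1 lower, against 24.8% of the 9155 named genes (9.31% higher and 15.5% lower). The median difference of the members was 0.12 (range -0.39 to 0.77), against -0.02 over all named genes, and 22 of 30 were above 0. Without control replicate 1 the median was -0.07, with 13 of 30 above 0, and without BMP6 replicate 4 the count of calls was 1 (TK1). For LH+BMP6 against LH, 2 of 30 members were called, both higher, against 27.2% of all named genes (11.7% higher and 15.5% lower). The median was 0.26 (range -0.32 to 1.09), against -0.03 over all named genes, with 29 of 30 above 0. Without LH replicate 1 it was 0.06, with 19 of 30 above 0, and with the replicate block 5 members were called: TK1, MCM6, MCM4, CCND2 and CDKN1C. With the block as a random effect 2 were called, TK1 and MCM6. Without BMP6 replicate 2, which enters only through the shared estimate of the spread, 4 were called. The members' share of calls was below that of all named genes in both comparisons, while their median SE was 0.19 against 0.10 over all probe sets. Their median size of difference, regardless of sign, was 0.13 against 0.15 over all named genes in BMP6 against control, and 0.28 against 0.16 in LH+BMP6 against LH.

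LH alone gave no call among the members. In LH against control 0 of 30 members were called by limma, and 0 had an unadjusted p under 0.05, where 2 of 9155 named genes (0.0218%) were called. The median difference was -0.18 (range -0.46 to 0.31), with 27 of 30 below 0, against 0.00 over all named genes. CCNB1 was the lowest at -0.46 ± 0.27 (adjusted p = 0.926), then KIF20A at -0.44 ± 0.26 and CCNB2 at -0.39 ± 0.28. TK1 was at -0.36 ± 0.18 (unadjusted p = 0.0556, adjusted p = 0.914). Without LH replicate 1 the median was -0.03, without control replicate 1 it was -0.31, and without both it was -0.16 with 28 of 30 below 0. None of these fits called a member.

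In the presence of BMP6, LH made no called difference either. In LH+BMP6 against BMP6 0 of 30 members were called, with 0 at an unadjusted p under 0.05, and 0% of all named genes. The median was -0.04 (range -0.26 to 0.22), and BUB1 (-0.26 ± 0.25) and AURKA (-0.22 ± 0.13) had the lowest values. The interaction, which asks whether BMP6 acted differently with LH than without it, called 0 of 30 members and 0% of all named genes, with 0 members at an unadjusted p under 0.05. Its median over the members was 0.15 and its value for TK1 0.33 ± 0.25 (unadjusted p = 0.208), so the difference between the TK1 values with and without LH was not called. The tests of BMP6 with and without LH use separate arrays, and each test of LH shares arrays with both.

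**Figure D4:**
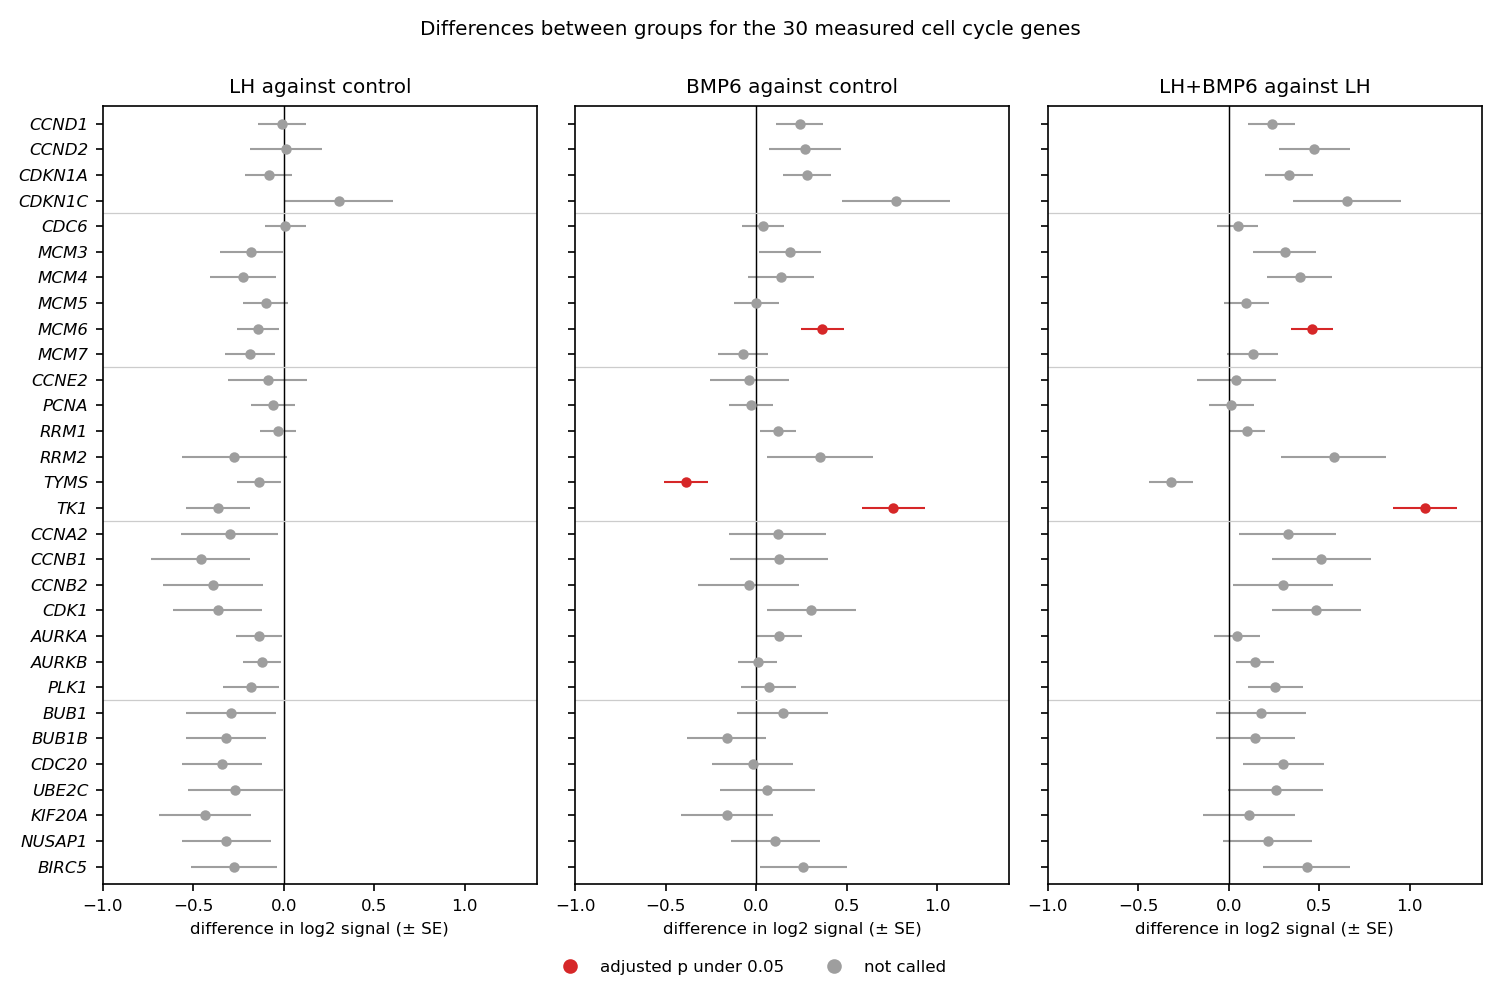
Difference in log2 signal (horizontal axis) with its SE for each of the 30 measured genes (rows, ordered by role) in LH against control, BMP6 against control and LH+BMP6 against LH. Red marks a limma adjusted p under 0.05: TK1, MCM6 and TYMS for BMP6 against control, TK1 and MCM6 for LH+BMP6 against LH, and none for LH against control.

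Over all 4 arrays of a group, these genes differed more between arrays without BMP6 than with it, which for LH depended on replicate 1. The median SD of the 30 members over the 4 arrays of a group was 0.32 in control and 0.37 with LH, against 0.18 with BMP6 and 0.16 with LH+BMP6. Over all named genes it was 0.11, 0.14, 0.13 and 0.13. The SD was larger in control than with BMP6 for 26 of 30 members (43.9% of all named genes) and larger with LH than with LH+BMP6 for 28 of 30 (55.7%). Without the arrays of replicate 1 these counts were 22 of 30 and 6 of 30 (40.8% and 52.2% of all named genes). The members' median SD was then 0.23 in control against 0.16 with BMP6, and 0.08 with LH against 0.17 with LH+BMP6. The second contrast thus rests on the replicate 1 arrays and was reversed without them. The spread itself was not tested.

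Within groups the S-phase and mitotic members varied together. Over the 16 arrays, after the mean of each group was removed, the median r between pairs of the 26 members other than D-type cyclins and CDK inhibitors was 0.85, and it was 0.67 over the 12 arrays without replicate 1. These are descriptions: arrays share an experiment, and genes of an array share its hybridisation. PLK1, CCNB1, CCNB2, MCM4 and UBE2C followed the rest most closely, each with a median r of 0.92, and without replicate 1 with 0.86, 0.83, 0.84, 0.83 and 0.81. CDKN1A ran opposite, with a median r of -0.72 over 16 arrays and -0.50 over 12, and CDKN1C with -0.36 and -0.63. TK1 followed the others less (0.54, and 0.04 without replicate 1), and TYMS did not (-0.01 and 0.01). Of the 6 S-phase genes, TYMS and TK1, both called with BMP6, were those that followed the 26 members least.

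Other gene lists were read on control replicate 1 and LH replicate 1 in the same way. Of 16 further genes of spindle motors and cytokinesis, 12 and 14 lay below their group mean on these arrays, by a median of 0.40 and 0.38. Of 20 kinetochore and checkpoint genes it was 17 and 16, and of 29 replication fork and histone supply genes 25 and 22. Genes that restrain the cycle lay above their group mean more often, 12 and 14 of 18. Theca markers were above it in 6 and 7 of 7 cases, by a median of 0.18 on control replicate 1 and 0.64 on LH replicate 1. Fibroblast and pericyte markers were below it in 11 and 10 of 13 cases, endothelial markers in 9 and 9 of 11, and leukocyte markers in 5 and 11 of 14. On other arrays the endothelial markers and the members went the same way in some cases and not in others. On LH replicate 3, 10 of 11 endothelial markers and 27 of 30 members were above the group mean. On control replicate 2, endothelial markers were below it in 10 of 11 cases, where 28 of 30 members were above it. On BMP6 replicate 1 and LH+BMP6 replicate 1, endothelial markers were below it in 10 and 11 of 11 cases (medians -0.41 and -0.27). Members were below it there in 20 and 22 of 30 cases, with medians of -0.03 and -0.04. Leukocyte markers were below it in 14 and 13 of 14 cases on those BMP6 and LH+BMP6 arrays. The part of these other cell types in the low cycle genes was not tested.

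Of 171 further measured genes of 10 lists on the cycle and its control, 13 rose and 20 fell in BMP6 against control (19.3% called, against 24.8% of all named genes), and 16 rose and 20 fell in LH+BMP6 against LH (21.1% against 27.2%). Of these genes 28.7% and 32.7% had an unadjusted p under 0.05, near the 29.7% and 31.4% of all probe sets. Most that rose were in the lists of inhibitors and of the response to mitogens. In the 8 lists of the cycle's machinery, with 133 genes, 2 rose and 15 fell against control (12.8% called), and 5 rose and 13 fell against LH (13.5%). The median differences of the 171 genes were -0.02 and 0.05, against -0.02 and -0.03 over all named genes. Origin genes included ORC2 (-0.30 ± 0.09) and ORC3 (-0.31 ± 0.10), subunits of the origin recognition complex, the only 2 of 14 called in BMP6 against control. At the replication fork 1 gene rose and 4 fell of 29. POLD2, a subunit of polymerase delta, fell by 0.56 (adjusted p = 0.00322), RPA3, a subunit of the single-strand binding protein, by 0.46 (adjusted p = 0.00142), and RFC4, of the clamp loader, by 0.45 (adjusted p = 0.00358). In LH+BMP6 against LH, RPA3 (-0.49), RPA1 (-0.48) and SLBP (0.45), which binds histone mRNA, were the largest of 5 calls in 29.

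Of 9 further G1 genes CCND3, cyclin D3, was the only one called, lower by 0.65 ± 0.13 with BMP6 than in control (adjusted p = 0.00236) and by 0.68 ± 0.13 with LH+BMP6 than with LH (adjusted p = 0.00145). Its group means were 9.61 ± 0.09 in control, 9.73 ± 0.35 with LH, 8.96 ± 0.20 with BMP6 alone and 9.04 ± 0.07 with LH+BMP6. The 2 other D-type cyclins, both members, had values above 0 in the same comparisons and were not called. Of the 12 E2F, RB and DREAM factors, which switch S-phase genes on and off, 0 were called in BMP6 against control and 2 rose in LH+BMP6 against LH, E2F4 (0.30 ± 0.09) and TFDP1 (0.28 ± 0.07). Of all named genes, 24.8% and 27.2% were called in these comparisons.

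Of 69 further genes in the 4 lists of G2 and mitosis, 1 rose and 8 fell in BMP6 against control, which is 13.0% called against 24.8% of all named genes, of which more fell than rose as well. Among 11 G2 and mitotic kinase genes CKS2, a subunit that binds CDK1, fell by 0.51 (adjusted p = 0.0187) and HMMR, a spindle protein, by 0.42 (adjusted p = 0.0185) in BMP6 against control. Both fell in LH+BMP6 against LH as well (-0.47 and -0.42), where PLK3, a stress kinase, rose by 0.46. SKA2 (-0.47 ± 0.07, adjusted p = 0.000144) and ZW10 (-0.33 ± 0.08), both at the kinetochore, were the called genes among 20, and they fell against LH too (-0.45 and -0.30). CKAP5, a microtubule polymerase, was the only call among 16 spindle genes and rose (0.32 ± 0.07 and 0.36 ± 0.07). Of 22 condensin, cohesin and anaphase-promoting complex genes 4 fell in BMP6 against control, led by ANAPC10 (-0.35), ANAPC13 (-0.34) and NCAPD3 (-0.30), and ANAPC13 (-0.45) and ANAPC11 (-0.19) fell in LH+BMP6 against LH.

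Larger differences were found among genes that restrain or follow growth signals. Of 18 further inhibitors and antiproliferative genes 4 rose and 3 fell in BMP6 against control. KLF4, a transcription factor linked to arrest, rose by 0.91 ± 0.15 (adjusted p = 0.000404) and RGCC, a regulator of the cycle, by 0.88 ± 0.19, while GADD45B, a growth-arrest gene of stress and TGF-beta signals, fell by 0.92 ± 0.19 (adjusted p = 0.00275). In LH+BMP6 against LH KLF4 rose by 1.34 ± 0.15 (adjusted p = 1.04e-05), TOB1, an antiproliferative gene, fell by 0.94 ± 0.14 and GADD45B by 0.90 ± 0.19, among 4 that rose and 5 that fell. Of 20 genes of the response to mitogens 7 rose and 2 fell in each comparison. Called were thus 38.9% and 50% of the inhibitor list and 45% of the mitogen list in each, against 24.8% and 27.2% of all named genes. The lists were chosen with earlier results of these data known, so these shares are descriptions and not a test of the lists. In BMP6 against control IER3 (0.80 ± 0.21), FOS (0.78 ± 0.17) and EGR1 (0.62 ± 0.13), immediate-early genes that growth factors induce, had the largest differences. In LH+BMP6 against LH these were 0.95 ± 0.21, 0.95 ± 0.17 and 0.72 ± 0.13. In LH against control limma called 0 of the 171 genes, where 2 of 9155 named genes were called. Of the 171 genes 11 (6.43%) had an unadjusted p under 0.05, near the 5.38% of all probe sets.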

How the data were processed

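RNA of the 16 cultures was hybridised to Affymetrix bovine GeneChips, 1 array a culture. The authors made the deposited log2 signal with RMA in Affymetrix Expression Console, per the submitters' processing notes. The sources used here give no version. No column of the value table was left out, and no further normalization was applied. The software summarises probes and equalises the arrays' distributions, so a shift common to all genes could not be read. No depth applies to arrays, and their number limits the precision. Of 24128 probe sets, 112 were Affymetrix controls. The other 24016 were all tested, dim ones included. The annotation of the array held by GEO, which can be old, gave 1 symbol to 13292 of them, several to 86 and none to 10638, and only the first kind was named. Entrez identifiers found for 13263 changed 0 symbols.

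Probe sets were tested with limma 3.58.1 (R 4.3.3): lmFit with 1 coefficient for each of 4 groups over all 16 arrays, eBayes with an intensity trend, and Benjamini-Hochberg adjustment over 24016 probe sets. Changes are differences of log2 signal ± SE with n = 4 arrays a group. The count of calls among 9155 named genes, by the same rule for probe sets, is the background. Quoted adjusted p-values are those of limma. Correlations and spreads are descriptions. Tables were made with pandas 2.3.3 and numpy 2.4.6 in Python 3.11.15, and figures with matplotlib 3.10.9.

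The members and lists were chosen with earlier results of these data known. All measured members are named, and from each further list up to 3 called genes a comparison with the largest change, and markers that bear on the cell type. Per the design text, each group's 4 arrays come from 4 experiments with different ovaries. Replicate numbers were read as these experiments, although no label says so for a single array. To check this, deviations from the group means on arrays of the same number were correlated across probe sets. The mean was 0.04 between control and BMP6 (-0.11 to 0.15), 0.16 between control and LH, 0.20 between LH and LH+BMP6 and 0.38 between BMP6 and LH+BMP6, and for different numbers -0.01, -0.05, -0.07 and -0.12. Alternatives were the replicate block as a fixed term or as a random effect (statmod 1.5.0), eBayes without trend or robust, quantile normalization, a fit of the compared arrays alone, a filter on probe sets below the 40th percentile of mean signal, the mean of a gene's probe sets, and arrays left out. Another 2 were added after the data were seen: the blocked fit without each replicate number, and a fit without both control replicate 1 and LH replicate 1.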

Additional observations from a re-analysis of the deposited data

Results flagged for a closer look

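In 16 of 120 groups of 4 arrays looked at (30 genes in 4 groups), 1 array stood apart by more than the critical value of Dixon's test. Chance alone flags about 1 in 20 groups, and genes of an array are not independent. Of these, 12 fell on LH replicate 1, which was the lowest of the LH arrays for MCM3 (6.92), MCM4 (7.65), MCM5 (6.57), MCM6 (8.40), CCNB1 (5.85), CCNB2 (5.97), CDK1 (6.54), PLK1 (6.34), BUB1 (5.95), UBE2C (6.53), NUSAP1 (7.11) and BIRC5 (6.28). The same array had the highest theca markers of the LH group and low hybridisation controls. Another 2 fell on BMP6 replicate 2, the highest BMP6 array for MCM4 (8.72) and UBE2C (8.02). The last 2 fell on BMP6 replicate 4, the lowest BMP6 array for AURKA (7.05) and the highest for BIRC5 (7.82). Control replicate 1, where 28 of 30 genes lay below the group mean, was not among them, and control replicate 4 was low as well, for 25 of 30.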

How the results depend on the processing

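For LH against control, LH+BMP6 against BMP6 and the interaction, 0 members were called under every alternative run. For BMP6 against control 3 members were called, and 1 with only the arrays compared. Leaving out single arrays gave 1 (without BMP6 replicate 4) to 3, leaving out a replicate number 0 (without replicate 4) to 3, and leaving out replicate 1 with the replicate block 5. For LH+BMP6 against LH 2 were called, 5 with the replicate block, 2 to 4 with single arrays left out, and 4 with each replicate number left out in the blocked fit. TK1 kept its call in both tests of BMP6, except against control without replicate 4 (adjusted p = 0.0719, or 0.0601 with the block). MCM6 and TYMS each lost theirs against control under 12 alternatives. The block changed no call beyond those given for CDKN1C, CCND2 and MCM4. As a random effect it called 4 members against control, CDKN1C among them, and 2 against LH, where CCND2, MCM4 and CDKN1C were not called (adjusted p = 0.0656, 0.0968 and 0.0833). When the 3 arrays with dim hybridisation controls were left out, 3 members were called in each test of BMP6, with CDKN1A in place of TYMS against control. No member changed sign while called. The median against control did change sign, from 0.12 in the main fit to -0.07 without control replicate 1. Of the members' single values under alternatives, 4884 kept their call or, uncalled, stayed within 1 SE. Another 115 uncalled values moved by more than 1 SE, 35 gained a call and 26 lost one. Part of the 4884 had no room to move, as leaving out an array outside a comparison leaves its differences as they were. That count is thus no measure of stability. The median against control ran from -0.07 to 0.22, that against LH from 0.06 to 0.34, and that of LH from -0.31 to -0.03. The cause of these changes was not tested.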
